A study of Rattus norvegicus with 52 samples.

Results

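The kidney response of the ET3x2 congenic rat to 24 hours of dietary salt was measured in 8 male rats, 4 on high salt and 4 on low salt, by their titles. They account for 16 of the 52 arrays and 8 of the 26 rats of the series. An ET3x2 rat has the genetic background of the Dahl SS/Jr (S) rat with a segment of the salt-resistant R strain bred into it. Both diet groups carry that segment, whose ends the labels do not give, so diet is the labelled difference between them. All rats were weaned at 30 days onto food with 0.4% NaCl, the low-salt diet. The high-salt rats were moved to 4% NaCl at 39 to 41 days of age, and all were killed at 40 to 42 days. The left kidney of each rat, from which 15 µg of total RNA was labelled, was hybridised to both chips of the Affymetrix RAE230 set, RAE230A and RAE230B. The same diets were given at the same time to S rats (5 on high salt and 5 on low salt) and to rats of another congenic strain, ET3x1 (4 on high salt and 4 on low salt), which are used here only for comparison.

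When dietary salt rises, the kidney returns the body to balance by reabsorbing a smaller share of the sodium it filters. Most sodium is taken back by the proximal tubule, more by the thick ascending limb through the cotransporter Slc12a1, and the last part by the distal nephron, where aldosterone sets the activity of the epithelial sodium channel. The S rat is a model of hypertension because its blood pressure climbs on a salty diet.

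The files hold 31042 non-control probe sets when those printed on both chips are counted once, and 15473 of them, with a mean at or above the median of their chip, were tested (7933 on RAE230A and 7540 on RAE230B). Values are log2 levels as deposited, so a difference of 1 is 2-fold, and array medians of the ET3x2 rats lay between 7.49 and 7.52 on RAE230A and between 6.37 and 6.40 on RAE230B. Kidney markers were well represented. All 11 proximal tubule markers on the arrays, all 6 of the thick ascending limb and 12 of 14 of the distal tubule and collecting duct passed the filter, against 2 of 12 adrenal and 3 of 9 adipocyte markers. RNA of a whole kidney cannot tell apart fewer cells of a type and less RNA per cell. The chips themselves set a limit on small changes. For the 100 non-control probe sets present on both chips, the salt change had the same sign on both in 54, and the median gap between the chips was 0.11, against a median absolute change of 0.07 on RAE230A.

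Few transcripts passed the test for a salt difference in ET3x2 kidneys, and most of those were higher on high salt. Ndrg1, a stress-responsive gene that is also switched on by low oxygen, was 1.89-fold higher, and Idi1 of cholesterol synthesis, the pentraxin gene Apcs and Gatm of creatine synthesis were 1.71-fold, 1.66-fold and 1.59-fold higher. The salt-inducible kinase gene Sik1 and Noct, whose product nocturnin is made in a daily rhythm, were 1.32-fold and 1.40-fold lower. limma called 47 of the 15473 tested probe sets (0.304%) at an adjusted p under 0.05, 40 of them higher (0.259%) and 7 lower (0.0452%). The median absolute change among the calls was 0.46, the smallest was 0.30, and 0 of the tested probe sets moved by more than 2-fold. The 4 high-salt rats lay entirely above or below the 4 low-salt rats in 39 of the 47, and in 6.62% of all tested probe sets. Of the 47, 45 were on RAE230A and 2 on RAE230B. At an unadjusted p under 0.05 there were 1760 (11.4%), 1102 higher and 658 lower. Calls on bright probe sets were mostly increases, 37 higher and 2 lower when only the brightest 25% were tested. The lists below hold each gene's brightest probe set, so they are not matched in brightness to shares of all tested probe sets.

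**Figure D1:**
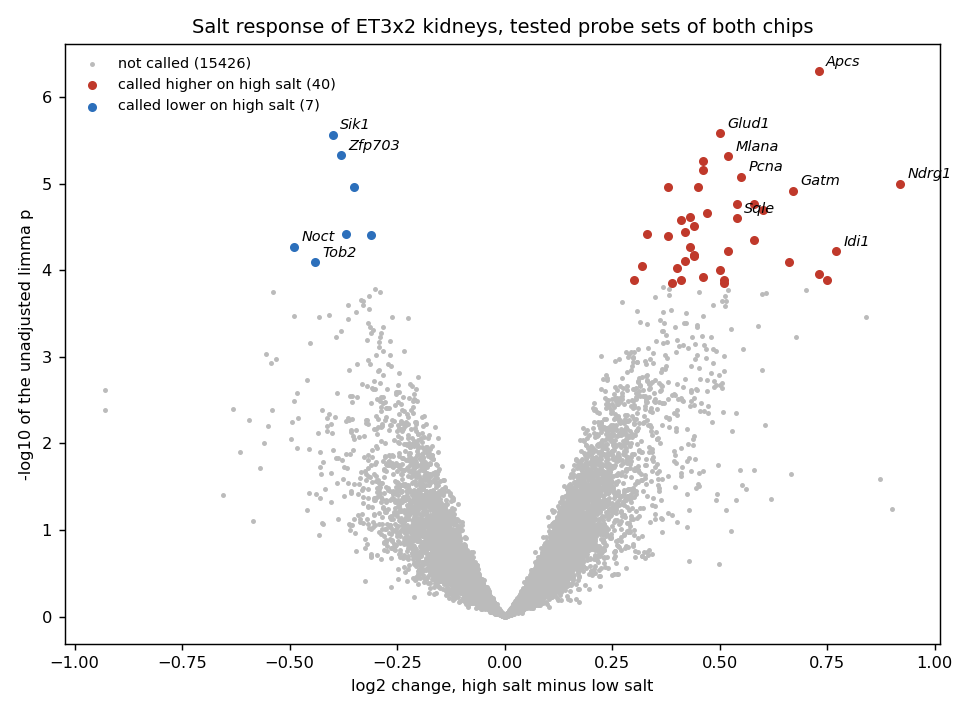
Each point is a tested probe set of either chip, with the log2 change in ET3x2 kidneys (high salt minus low salt) across and the negative log10 of the unadjusted limma p up. Red points are the 40 called higher, blue points the 7 called lower, and grey points the rest, with the calls heavier on the right-hand side.

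The 47 stood for 40 genes, 34 higher and 6 lower, with 2 probe sets assigned to several genes each and 4 with no gene name. All 34 and all 6 genes are described below, those beyond the 12 largest increases having been added after their values were seen. The 6 probe sets without a single gene name moved by 0.51 to 0.75 upward in 5 cases and by -0.35 in the other.

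The count depended on which rats were used. High-salt rat 4 was the lowest of the high-salt rats in 23 of the 40 higher probe sets, and its mean level over those 40 was 9.80, against 9.90 to 10.02 in the other 3 high-salt rats and 9.39 to 9.48 in the low-salt rats. Without that rat 294 probe sets were called, 46 of the 47 among them, and without low-salt rat 3 the number was 149. Leaving out high-salt rat 1 or high-salt rat 3 left 1 call, Apcs (0.74 in both, limma adjusted p = 0.0345 and 0.036), the only gene that kept its call whichever of the 8 rats was left out. Without low-salt rat 4, low-salt rat 2 or high-salt rat 2 there were 14, 17 and 26 calls. When the spread was taken from the ET3x2 rats alone, 0 of the 47 kept the call (smallest limma adjusted p among them 0.0729), although all 47 kept their direction and an unadjusted p under 0.05. That fit called 1 gene, the transcription repressor gene Bcl6 (0.87, limma adjusted p = 0.00284). With the ET3x2 and S rats in the fit 8 were called.

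RNA quality measures stood apart by diet on RAE230B, though none of the 12 measures had an adjusted p under 0.05 (smallest 0.114). The 3' to 5' log2 ratio of the Gapdh control probe sets, which reads how far cDNA ran along the transcript, was 0.647, 0.875, 0.674 and 0.793 on high salt, against 0.958, 0.967, 1.01 and 0.855 on low salt, on RAE230A, where the groups overlapped (exact p = 0.0571). On RAE230B it was 0.479 to 0.719 on high salt, against 0.733 to 0.815 on low salt, with no overlap (exact permutation test, two-sided, p = 0.0286, the smallest that 4 against 4 rats allow, adjusted over 12 quality measures 0.114). The beta-actin ratio on RAE230B was also lower on high salt without overlap (0.53 ± 0.08, against 0.846 ± 0.169 on low salt, SD, n = 4 each, exact p = 0.0286, adjusted p = 0.114). For beta-actin on RAE230A the high-salt rats read 0.776, 1.02, 1.01 and 0.704, against 1.01, 1.16, 1.28 and 0.773 in the low-salt rats, with overlap (exact p = 0.286, adjusted p = 0.343). On RAE230A, which held 45 of the 47 calls, the bioD minus bioC spike-in difference averaged 2.67 on high salt and 2.29 on low salt. Its exact p was 0.0571, as was that of the array median there. The array median on RAE230B averaged 6.4 on high salt and 6.38 on low salt, without overlap (exact p = 0.0286, adjusted p = 0.114). With the Gapdh ratio as a covariate 0 probe sets were called (779 at an unadjusted p under 0.05). All 47 kept their direction and their changes were a median 0.867 of the size, while the median standard error was 0.12, against 0.0913 without it, and 46 had an unadjusted p under 0.05. With the beta-actin ratio 74 were called, 42 of the 47 among them. The part of the RNA ratios in the changes below was not tested further.

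**Figure D2:**
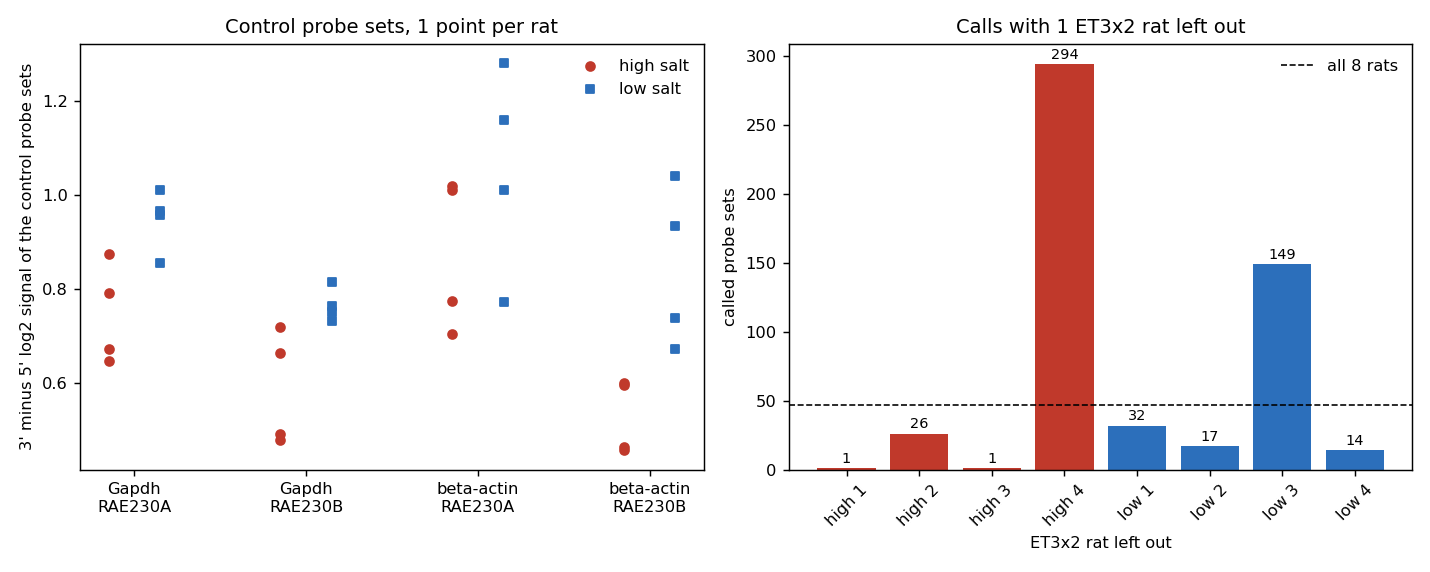
The left panel plots the 3' minus 5' log2 signal of the Gapdh and beta-actin control probe sets for each ET3x2 rat, with red circles for high salt and blue squares for low salt. The right panel gives the number of called probe sets with each rat left out, between 1 and 294, and the dashed line marks the 47 called with all 8 rats.

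Ndrg1 was called by both of its probe sets. On RAE230B it read 10.88, 10.00, 10.76 and 10.69 in the high-salt rats, against 9.81, 9.78, 9.46 and 9.62 in the low-salt rats. Every high-salt rat was above every low-salt rat, though high-salt rat 2 stood only just above (0.92 ± 0.17, limma adjusted p = 0.0147). The RAE230A probe set, at 12.65 to 12.97 on high salt and 12.09 to 12.46 on low salt, rose by 0.54 ± 0.10 (limma adjusted p = 0.0178). It was the only called gene of the 27 tested on the list of hypoxia-responsive genes (0.304% of all tested probe sets were called), whose median change was 0.11, against 0.01 over all 8825 tested genes.

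Apcs, which encodes serum amyloid P component, a pentraxin that binds amyloid and microbes, had the smallest p. It read 11.10, 11.19, 11.10 and 11.13 on high salt, against 10.32, 10.48, 10.12 and 10.69 on low salt. The high-salt rats lay within 0.04 (SD) of each other, well above all low-salt rats (0.73 ± 0.11, limma adjusted p = 0.00777). C1qtnf3, for a secreted protein related to complement C1q, rose by 0.45 ± 0.08. Lcn2, for the iron-binding lipocalin that injured tubules secrete, was 7.81, 7.84, 7.68 and 7.79 on high salt, against 7.33, 7.48, 7.34 and 7.67 on low salt. High-salt rat 3 and low-salt rat 4 nearly met (0.32 ± 0.07, limma adjusted p = 0.0366). Of the 20 tested genes of the tubular injury list Lcn2 was the only call (0.304% of all tested probe sets were called). At an unadjusted p under 0.05, 6 were higher (30.0%, against 7.12% of all tested probe sets), among them Spp1 for osteopontin (0.45 ± 0.13) and Vim for vimentin (0.39 ± 0.12). Others on the list were lower without a call, among them Hmox1 (-0.21 ± 0.13), Krt19 (-0.17 ± 0.18) and C3 (-0.12 ± 0.11). The cathepsin K gene Ctsk, for a protease that digests collagen, rose by 0.30 ± 0.07.

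Among enzymes of cholesterol synthesis, Idi1 and Sqle were called higher. Idi1, isopentenyl diphosphate isomerase, read 9.15, 8.82, 8.67 and 8.24 on high salt, against 8.10, 7.84, 7.99 and 7.85 on low salt. High-salt rat 4 was the lowest of its group yet above all low-salt rats (0.77 ± 0.16, limma adjusted p = 0.0297). Sqle, squalene epoxidase, read 8.84, 8.43, 8.30 and 8.36 on high salt, against 7.86, 8.14, 8.01 and 7.75 on low salt (0.54 ± 0.11, limma adjusted p = 0.0199). The groups did not overlap. Of the 20 tested genes of the list these 2 were called higher and 0 lower (0.259% and 0.0452% of all tested probe sets were), and the median was 0.19. At an unadjusted p under 0.05, 10 were higher and 1 lower, against 7.12% and 4.25% of all tested probe sets. The lower one was Mvd (-0.23 ± 0.11, limma adjusted p = 0.405), and Fdft1 differed by only 0.17 ± 0.10 (0.557). Acat2, the thiolase that starts the pathway, was 0.42 ± 0.10 higher (limma adjusted p = 0.0627) and Dhcr7, which makes cholesterol in its last step, 0.34 ± 0.10 (0.148), both without overlap and neither called. A second probe set of Idi1 gave 0.43 ± 0.11 (0.0957). Pgrmc1, a haem-binding membrane protein that partners with cytochrome P450 enzymes including those of sterol synthesis, rose by 0.52 ± 0.11, with 1 high-salt rat (10.37) within the low-salt range of 10.18 to 10.38.

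The called genes Gatm, Cth and Glud1 encode enzymes of amino acid and nitrogen metabolism and are put together here after the calls were seen. Gatm, which makes the creatine precursor guanidinoacetate in the proximal tubule, read 11.57, 11.64, 11.91 and 11.15 on high salt, against 10.83, 10.84, 11.16 and 10.76 on low salt. High-salt rat 4 fell just below low-salt rat 3 and the other rats were apart (0.67 ± 0.13, limma adjusted p = 0.0148). A second Gatm probe set, on RAE230B, gave 0.02 ± 0.09. Cth, cystathionine gamma-lyase, which makes cysteine and hydrogen sulfide, read 10.91, 10.45, 10.85 and 10.61 on high salt, against 10.05, 10.13, 10.26 and 10.04 on low salt, with no overlap (0.58 ± 0.12, limma adjusted p = 0.026). Glud1, the glutamate dehydrogenase that releases ammonia, read 11.89, 11.70, 12.06 and 11.71 on high salt, against 11.32, 11.18, 11.45 and 11.38 on low salt. Again the groups were apart (0.50 ± 0.08, limma adjusted p = 0.0142), and its other probe set gave 0.26 ± 0.11. Of 39 tested genes on the list of creatine and amino acid breakdown, which does not hold Cth or Glud1, Gatm was the only call (0.304% of all tested probe sets were called) and the median was 0.12. At an unadjusted p under 0.05, 12 were higher and 1 lower, against 7.12% and 4.25% of all tested probe sets. Glud1 was the only call of 18 genes on the list of gluconeogenesis and ammonia, whose median was 0.08. The valine and thymine enzyme gene Aldh6a1 (0.48 ± 0.12), the lysine enzyme gene Aass (0.53 ± 0.13) and the pyrimidine enzyme gene Upb1 (0.42 ± 0.10) stood next, with limma adjusted p between 0.0701 and 0.0831.

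The promoters of Idi1 and Cth are shown with that of Sik1, the kinase gene described further on, to set the sequence before each start beside its salt change. They are the 250 bases before the gene's start in RefSeq's GRCr8 annotation, 5′ to 3′ along the gene, with matches to a searched motif in capitals.
Idi1, chr17:66547525-66547774, minus strand: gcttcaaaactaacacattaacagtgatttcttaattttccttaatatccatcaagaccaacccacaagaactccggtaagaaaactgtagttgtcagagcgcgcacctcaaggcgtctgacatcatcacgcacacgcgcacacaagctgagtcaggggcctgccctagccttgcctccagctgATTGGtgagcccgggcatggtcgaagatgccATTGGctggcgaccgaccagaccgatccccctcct
Cth, chr2:249661067-249661316, minus strand: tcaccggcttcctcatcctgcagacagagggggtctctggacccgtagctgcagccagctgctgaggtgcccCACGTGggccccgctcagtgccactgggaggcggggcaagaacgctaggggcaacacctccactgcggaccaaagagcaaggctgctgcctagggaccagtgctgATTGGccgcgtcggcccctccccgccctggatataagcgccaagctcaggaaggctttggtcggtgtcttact
Sik1, chr20:9958647-9958896, minus strand: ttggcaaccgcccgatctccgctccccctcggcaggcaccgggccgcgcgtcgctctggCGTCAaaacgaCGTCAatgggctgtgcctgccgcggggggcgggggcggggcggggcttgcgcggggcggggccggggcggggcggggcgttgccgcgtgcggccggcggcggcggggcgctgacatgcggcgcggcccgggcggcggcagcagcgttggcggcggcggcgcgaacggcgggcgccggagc
In Idi1 the capitals mark 2 CCAAT boxes (CCAAT, here as its reverse complement ATTGG), a motif that sterol-regulated promoters often hold. In Cth they mark 1 E-box (CACGTG) and 1 CCAAT box, and in Sik1 they mark 2 half-sites of the cAMP response element (TGACG, here as CGTCA). Both strands were searched, and no motif overlapped another. Promoters of 30 of the 34 higher genes and 4 of the 6 lower genes were in the table. The CCAAT box was in 15 of the 30 and 0 of the 4, the cAMP half-site in 10 and 2, and the E-box in 2 and 1, against 34.3%, 19% and 5.79% of the 27457 promoters of the table. A sterol response element (TCACNCCAC) was in 0 of the 34, against 0.976%.

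Called genes for mitochondrial proteins included Ndufb6, Apoo, Cox15 and Vdac1, put together here after the calls were seen. They are not the only ones, since Gatm and Glud1 above also encode mitochondrial enzymes. Ndufb6, a subunit of respiratory complex I, read 10.73, 10.91, 10.70 and 10.64 on high salt, against 10.50, 10.36, 10.06 and 10.25 on low salt, without overlap (0.46 ± 0.08, limma adjusted p = 0.0143). Apoo, part of the complex that shapes the cristae, rose by 0.44 ± 0.09, Cox15, which makes haem A for cytochrome oxidase, by 0.38 ± 0.08, and Vdac1, the pore of the outer membrane, by 0.33 ± 0.07. A second Vdac1 probe set was 0.50 ± 0.14 higher and not called (limma adjusted p = 0.134). Of 68 tested oxidative phosphorylation genes Ndufb6 was the only call (0.304% of all tested probe sets were called). Their median was 0.12, 57 of them were above 0 (56.2% of all tested probe sets were), and 15 were higher and 0 lower at an unadjusted p under 0.05, against 7.12% and 4.25% of all tested probe sets. With quantile normalization that median was 0.03.

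Genes of the cell skeleton and membrane were also among the calls. Actg1, cytoplasmic gamma-actin, read 13.10, 12.95, 13.29 and 12.82 on high salt, against 12.62, 12.67, 12.66 and 12.50 on low salt, and Tmsb4x, which sequesters actin monomers, read 12.09, 12.20, 12.15 and 12.05, against 11.74, 11.44, 11.87 and 11.80 on low salt. Neither gene's groups overlapped, and the changes were 0.43 ± 0.08 and 0.41 ± 0.08. Rdx, which ties actin to the plasma membrane, rose by 0.41 ± 0.09, with high-salt rat 4 (8.70) inside the low-salt range of 8.50 to 8.71, and its other tested probe sets gave -0.14 ± 0.11 and 0.15 ± 0.19. Ppp1cb, the catalytic subunit of myosin phosphatase, read 8.21, 8.19, 8.48 and 7.55 on high salt, against 7.34, 7.43, 7.68 and 7.06 on low salt. High-salt rat 4 lay below low-salt rat 3 (0.73 ± 0.16, limma adjusted p = 0.0443). Lrrfip1, a nucleic acid-binding protein, was 0.51 ± 0.11 higher with high-salt rat 4 at 7.87 and low-salt rat 3 at 7.88. Pde4dip, a scaffold of the centrosome and Golgi, rose by 0.50 ± 0.11, the tetraspanin gene Tspan3 by 0.46 ± 0.08 and the ectoenzyme gene Enpp5 by 0.47 ± 0.09. Lcp1, an actin-bundling protein of leukocytes, rose by 0.44 ± 0.09, low-salt rat 1 (9.20) reaching almost to the lowest high-salt rat (9.22). It was the only call among 23 leukocyte markers, of which 21 were above 0 with a median of 0.15, while 0.304% of all tested probe sets were called and 56.2% were above 0. Their summed linear level ran from 20557 to 21500 in high-salt rats and from 15990 to 22532 in low-salt rats, and the part of leukocytes in the Lcp1 change was not tested.

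Among nuclear and growth genes, Pcna, the sliding clamp of DNA replication, read 10.35, 10.27, 10.20 and 10.10 on high salt, against 9.58, 9.81, 9.84 and 9.49 on low salt. The groups were clearly apart (0.55 ± 0.10, limma adjusted p = 0.0147). It was the only call among 32 tested genes of DNA replication and cell division, where the median was 0.13. Of these 27 were above 0 and 9 were higher at an unadjusted p under 0.05, against 56.2% and 7.12% of all tested probe sets, of which 0.304% were called. Rrm1, which makes deoxyribonucleotides (0.46 ± 0.12), and Top2a, a topoisomerase (0.40 ± 0.12), were higher without a call (limma adjusted p = 0.0831 and 0.155). Ptbp1, a repressor of exon inclusion, rose by 0.42 ± 0.09, the chromatin gene Morf4l1 by 0.40 ± 0.09, the ubiquitin-conjugating enzyme gene Ube2d2 by 0.39 ± 0.09 and Ranbp9, a scaffold of a ubiquitin ligase, by 0.46 ± 0.10. Ptbp1 was the only call among 56 splicing factors (median 0.05).

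The remaining increases were of metabolic and other enzymes and of Mlana. Mlana, known as an antigen of pigment cells, read 8.39, 8.22, 8.38 and 8.36 on high salt, against 7.82, 7.84, 8.02 and 7.59 on low salt, without overlap (0.52 ± 0.09, limma adjusted p = 0.0143). Adh1c, an alcohol dehydrogenase, rose by 0.44 ± 0.09, Lypla1, which removes palmitate from proteins, by 0.43 ± 0.09, Sult1b1, a sulfotransferase, by 0.42 ± 0.09 and Acyp1, an acylphosphatase, by 0.38 ± 0.07. Adh1c had another tested probe set at -0.08 ± 0.09 and Morf4l1 one at -0.10 ± 0.16. Of the 11 uncalled tested probe sets of called genes 8 had the same direction and 3 the opposite, and 0 were called the other way.

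The 6 genes that fell had groups that did not overlap. Sik1, a kinase named for its induction by salt in the rat adrenal gland, which holds back the coactivators of the cAMP-driven factor CREB, read 7.71, 7.92, 7.67 and 7.95 on high salt, against 8.12, 8.17, 8.23 and 8.34 on low salt (-0.40 ± 0.07, limma adjusted p = 0.0142). Noct read 7.39, 6.99, 7.20 and 7.21 on high salt, against 7.69, 7.61, 7.75 and 7.69 on low salt (-0.49 ± 0.10, limma adjusted p = 0.0289). All low-salt rats lay close together, and the high-salt rats were spread below them. Tob2, an antiproliferative protein tied to mRNA deadenylation, read 8.55, 8.51, 8.71 and 8.69 on high salt, against 8.95, 9.08, 9.30 and 8.88 on low salt (-0.44 ± 0.09, limma adjusted p = 0.0349). The transcription repressor gene Zfp703 changed by -0.38 ± 0.07, Mapk12, the gamma form of the p38 kinase, by -0.37 ± 0.08 and Spryd4 by -0.31 ± 0.06.

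**Figure D3:**
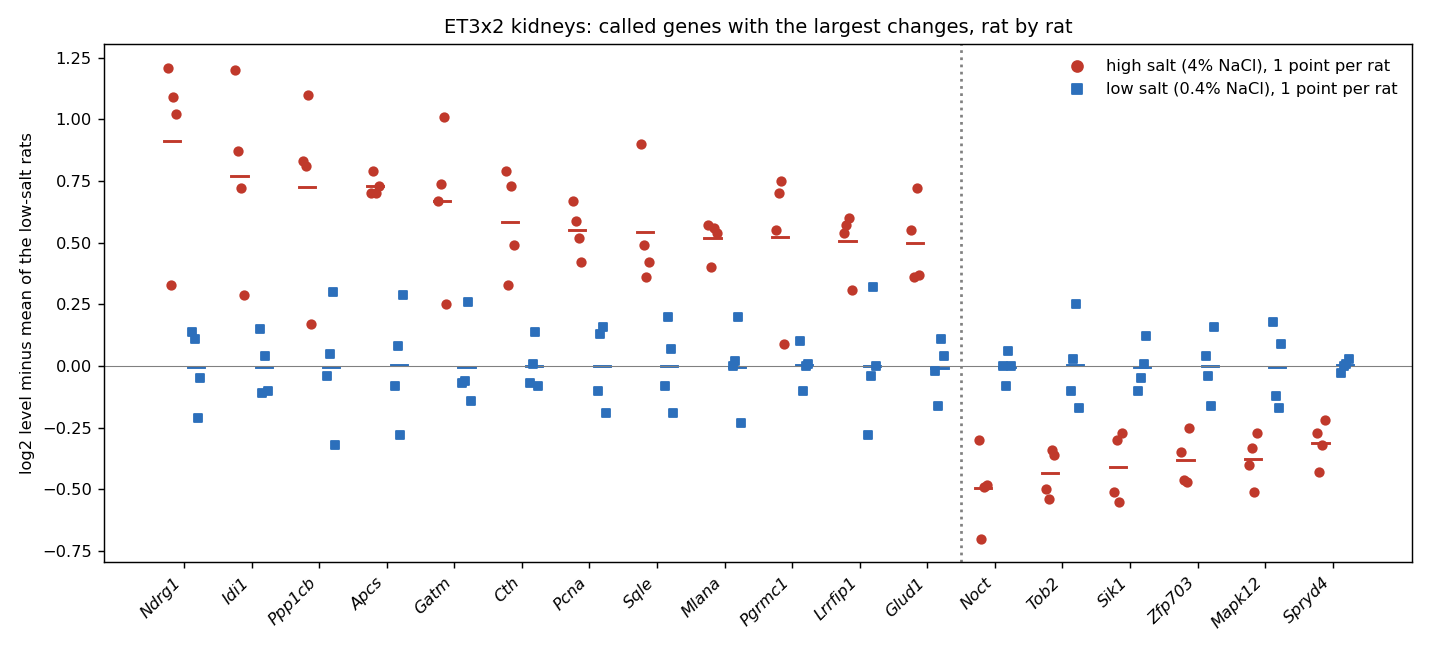
Each point is 1 ET3x2 rat, red circles on high salt and blue squares on low salt, for the 12 largest increases and the 6 decreases among called genes, as the log2 level minus the mean of the low-salt rats, with a short line at each group's mean. A single high-salt rat lies close to or within the low-salt range for Ndrg1, Ppp1cb, Gatm, Pgrmc1 and Lrrfip1, while the groups of Apcs and of the 6 lower genes do not overlap.

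The clock genes were the list with the lowest median, -0.17 over 15 tested genes, with 0 called and, at an unadjusted p under 0.05, 0 higher and 6 lower (40.0%, against 4.25% of all tested probe sets). Per3, a repressor within the clock, read 7.70, 7.92, 7.74 and 7.69 on high salt, against 8.03, 8.14, 8.17 and 8.09 on low salt (-0.34 ± 0.11, limma adjusted p = 0.157). Hlf, a clock output transcription factor, read 7.88, 7.87, 7.82 and 7.89 on high salt, against 7.94, 8.37, 8.25 and 8.16 on low salt (-0.31 ± 0.09, limma adjusted p = 0.112). In both genes, and in Per1 (-0.39 ± 0.15), Tef (-0.41 ± 0.14) and Usp2 (-0.42 ± 0.16), all high-salt rats lay below all low-salt rats, while none of the 5 was called. Groups that do not overlap were found in 6.62% of all tested probe sets. Other clock genes hardly moved, among them Clock (0.06 ± 0.08), Per2 (0.03 ± 0.09) and Nr1d1 (0.01 ± 0.16). The labels give no hour of killing. Of 18 immediate early genes 0 were called and the median was -0.10. Only 0.304% of all tested probe sets were called, so 0 calls in lists of 15 and 18 genes say little. The zinc finger factor Egr1 read 7.64, 7.43, 8.02 and 7.71 on high salt, against 9.0, 7.82, 8.42 and 9.27 on low salt, a wide spread with overlap (-0.93 ± 0.28, limma adjusted p = 0.148).

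Genes of sodium handling that passed the filter gave no calls (Slc26a4, below it, is given further on). Only 0.304% of all tested probe sets were called, so 0 calls in lists of this size say little. None of 19 tested genes of the aldosterone pathway and the epithelial sodium channel was called (median -0.01). At an unadjusted p under 0.05, 0 were higher and 2 lower, against 7.12% and 4.25% of all tested probe sets. These 2 were Per1, given above, and the sodium channel gene Scnn1a (-0.22 ± 0.11, limma adjusted p = 0.431). Sgk1, the aldosterone-induced kinase, read 10.07, 10.24, 10.50 and 9.86 on high salt, against 10.32, 10.48, 10.54 and 10.09 on low salt (-0.19 ± 0.19, limma adjusted p = 0.771). Of 21 thick limb and distal transport genes 0 were called (median 0.05). Slc12a1 read 9.44, 9.44, 9.70 and 9.06 on high salt, against 9.07, 8.72, 9.21 and 9.04 on low salt. The groups overlapped through high-salt rat 4 (0.40 ± 0.14, limma adjusted p = 0.204). The epidermal growth factor gene Egf, also made in the thick limb, was 0.44 ± 0.14 higher with overlap (limma adjusted p = 0.162). The 6 thick limb markers had a median of 0.34, with 4 higher at an unadjusted p under 0.05 (7.12% of all tested probe sets were), and a median of 0.03 with the Gapdh ratio as a covariate. Umod (-0.05 ± 0.07) and Cldn16 (-0.12 ± 0.09) among these markers did not rise. The summed linear level of the 6 was 12775 to 15016 on high salt and 12202 to 14722 on low salt. Of 33 proximal transport genes (median 0.04) and 10 of the sodium pump list (0.06), 0 were called, Car2 (carbonic anhydrase, limma adjusted p = 0.0509) and Slc4a4 (the basolateral bicarbonate exit, 0.07) coming nearest at 1.30-fold and 1.34-fold. On the sodium pump list Fxyd1 was lower (-0.26 ± 0.07, limma adjusted p = 0.115) and Fxyd2 higher (0.22 ± 0.08, 0.272), both with overlap. Agt, for angiotensinogen, was below the filter and differed by -0.36 ± 0.13 (limma adjusted p = 0.235 with no filter). On the distal chromosome 3 list 0 of 59 tested genes were called (median -0.01). Rtel1, a helicase gene there, gave -0.18 ± 0.08 and -0.03 ± 0.09 with its tested probe sets (limma adjusted p = 0.337 and 0.949), and Pck1, the gluconeogenic enzyme, 0.38 ± 0.13 (0.204).

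**Figure D4:**
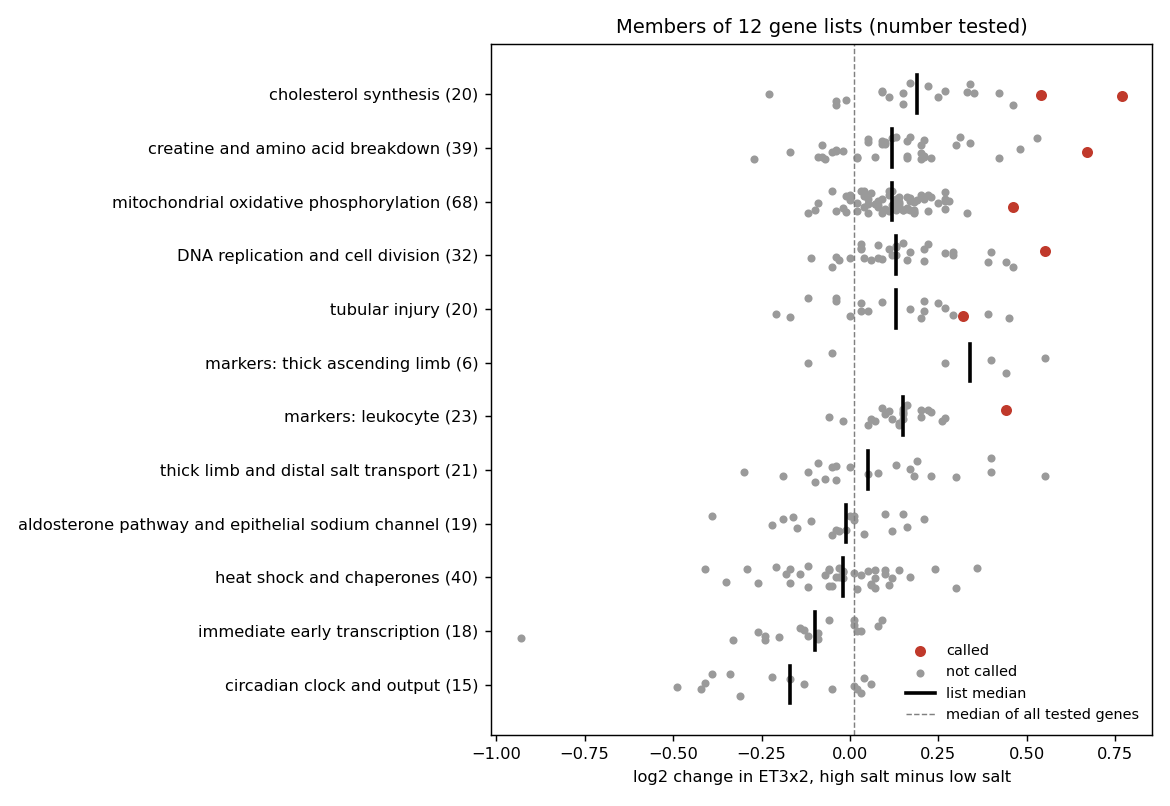
Each grey or red point is a tested gene of the list at left, at its log2 change in ET3x2 (high salt minus low salt), with called genes in red, a black bar at the list's median and a dashed line at the median of all tested genes, 0.01. Cholesterol synthesis and the thick limb markers have the highest medians of these 12 lists (0.19 and 0.34), and the clock list the lowest (-0.17).

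Below the filter the calls leaned the other way. With no filter 109 of 31042 probe sets were called, 55 higher and 54 lower, and of the 53 among these that the filter had left out, 46 were lower and 7 higher. Many of the 46 were small changes at dim levels. Myh4 averaged 4.43 on high salt and 4.59 on low salt, and Klk1c4 4.70 and 4.91, where the lowest RAE230A value was 4.11. The genes named here were chosen after their values were seen. Slc26a4, pendrin, the chloride and bicarbonate exchanger of intercalated cells, read 6.88, 6.91, 6.91 and 7.04 on high salt, against 7.32, 7.38, 7.33 and 7.26 on low salt, 2 tight groups well apart (-0.39 ± 0.09, limma adjusted p = 0.0475). Ucp1, the uncoupling protein of brown fat, read 6.75, 6.42, 6.09 and 6.48 on high salt, against 7.81, 7.65, 7.45 and 7.09 on low salt (-1.07 ± 0.18, 0.0149), and Cox8b, a muscle and brown fat subunit of cytochrome oxidase, 6.14, 6.18, 5.83 and 6.17, against 6.53, 6.46, 6.47 and 6.49 on low salt (-0.41 ± 0.08, 0.0208). Both were apart in all rats. The general fat markers Fabp4 and Adipoq differed by -0.08 ± 0.11 and -0.00 ± 0.10, and the part of fat attached to the kidney, which was decapsulated per the labels, was not tested. A second, dimmer probe set of the sterol enzyme gene Cyp51 rose by 0.52 ± 0.10 (0.0205), against 0.46 ± 0.19 (0.322) for the brighter one, the replication gene Dscc1 rose by 0.34 ± 0.06 (0.0149) and another Lrrfip1 probe set by 0.40 ± 0.09 (0.039).

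The salt responses of the other strains share no rat with that of ET3x2, though all came from the same fit. The same test called 430 probe sets in S (2.78%, 2.11% higher and 0.666% lower) and 2457 in ET3x1 (15.9%, 6.98% higher and 8.9% lower). Of the 47 ET3x2 calls 38 had the same sign in S and 44 in ET3x1, against 56.1% and 60.4% of all tested probe sets. In S 14 were called in the same direction (29.8% of the ET3x2 calls and 3.26% of the S calls), in ET3x1 22 (46.8% and 0.895%), in both 12, and in neither 23. None was called in the opposite direction. The 40 higher probe sets had a median change of 0.47 in ET3x2, 0.19 in S and 0.27 in ET3x1, and the 7 lower ones -0.38, -0.03 and -0.12. For some calls the ET3x2 low-salt level was the one that stood apart. Ppp1cb averaged 8.11 on high salt and 7.38 on low salt in ET3x2, against 8.44 and 8.49 in S and 8.44 and 8.15 in ET3x1. Sik1 averaged 7.81 and 8.22, against 7.83 and 7.86 in S and 7.65 and 7.77 in ET3x1. Apcs did not show this (11.13 and 10.40, 10.78 and 10.19, 11.19 and 10.49). Strain differences in level were not tested.

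Idi1, Sqle, Apcs, Ndrg1, Cth, Glud1, C1qtnf3, Ndufb6 and Lcn2 were called higher in all 3 strains, Ndrg1 by its RAE230B probe set. The RAE230A probe set of Ndrg1 changed by 0.23 ± 0.09 in S and 0.11 ± 0.10 in ET3x1 and was not called there (limma adjusted p = 0.182 and 0.522). Idi1 changed by 0.77 ± 0.16 in ET3x2, 0.87 ± 0.15 in S and 0.80 ± 0.16 in ET3x1, and Apcs by 0.73 ± 0.11, 0.59 ± 0.10 and 0.71 ± 0.11. Gatm stood apart from these, at 0.67 ± 0.13 in ET3x2, -0.09 ± 0.11 in S and 0.41 ± 0.13 in ET3x1, but its difference from S was not called (0.76, limma adjusted p = 0.0846). Of the 47, 0 differed from S and 1, Noct, from ET3x1. Noct changed by -0.49 ± 0.10 in ET3x2 and 0.16 ± 0.10 in ET3x1, a difference of -0.65 ± 0.15 (limma adjusted p = 0.0481), and by 0.01 ± 0.09 in S. At an unadjusted p under 0.05, 28 of the 47 differed from S and 20 from ET3x1.

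**Figure D5:**
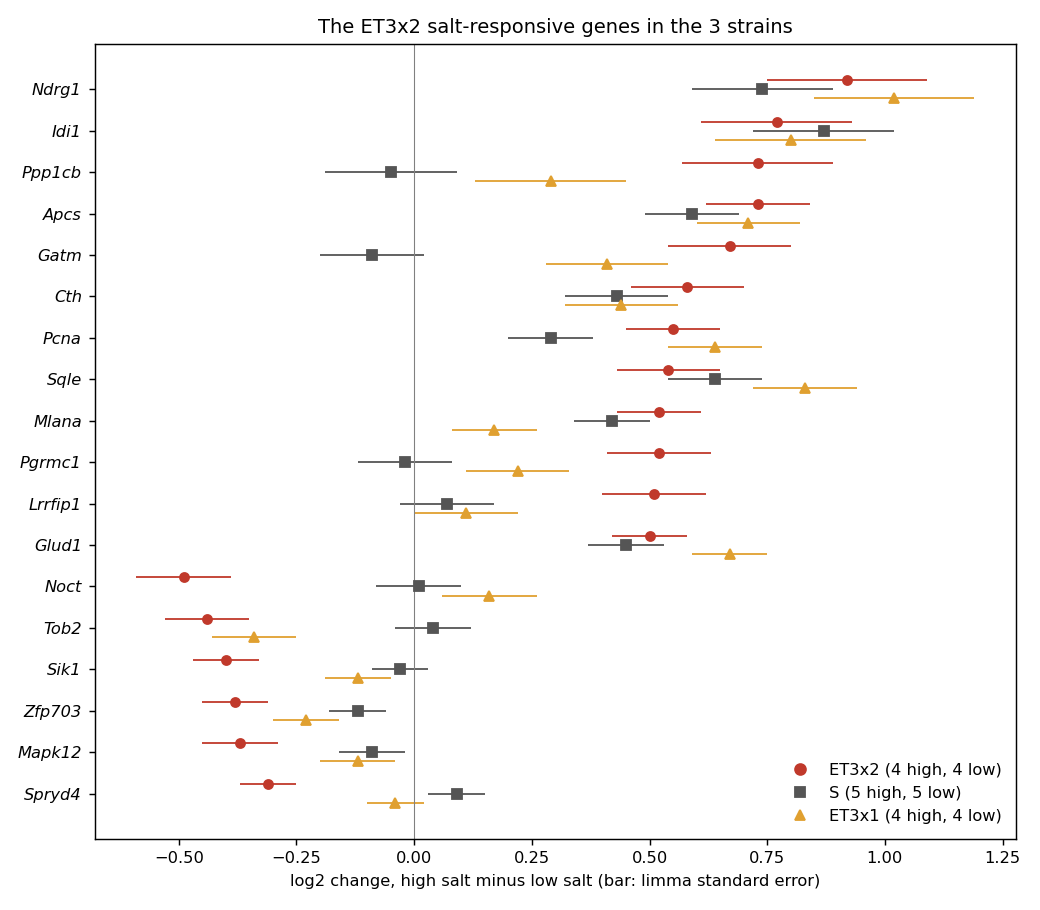
For the 12 largest increases and the 6 decreases of ET3x2, points give the log2 change (high salt minus low salt) with its limma standard error in ET3x2 (red circles), S (grey squares) and ET3x1 (yellow triangles). Idi1, Apcs, Cth, Sqle and Glud1 lie above 0 in the 3 strains, while Ppp1cb, Gatm, Pgrmc1 and Sik1 lie nearer 0 in S.

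The whole-table test of the difference between salt responses called few probe sets between ET3x2 and S. limma called 3 probe sets (0.0194%), 1 higher (0.00646%) and 2 lower (0.0129%), and 1390 (8.98%) had an unadjusted p under 0.05. Leaving out any of 6 of the 8 ET3x2 rats, centring the array medians or fitting the ET3x2 and S rats alone left 0 calls, while 44 were called without high-salt rat 4 and 43 without low-salt rat 3. Tns1, the focal adhesion protein tensin, read 9.71, 9.59, 9.91 and 9.61 on high salt, against 10.03, 9.87, 9.81 and 10.02 on low salt, in ET3x2, and averaged 9.52 ± 0.26 on high salt and 8.60 ± 0.38 on low salt in S (SD, n = 5 each). It was slightly lower on salt in ET3x2 (-0.23 ± 0.15) and higher in S (0.92 ± 0.13), a difference of -1.14 ± 0.20 (limma adjusted p = 0.0493). Igf1r, the receptor of insulin-like growth factor, changed by -0.22 ± 0.11 in ET3x2 and 0.55 ± 0.10 in S (-0.77 ± 0.14, 0.0497). A probe set of the skeletal muscle myosin gene Myh1, of a type that may bind related transcripts, changed by 0.40 ± 0.10 in ET3x2 and -0.35 ± 0.09 in S (0.74 ± 0.13, 0.0493).

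Against ET3x1 47 probe sets were called (0.304%), 19 higher (0.123%) and 28 lower (0.181%), and 2302 (14.9%) had an unadjusted p under 0.05. Leaving out ET3x2 high-salt rat 2 or low-salt rat 2 left 0 calls, and leaving out ET3x2 high-salt rat 4 gave 114. For the 6 genes with the largest positive differences the change in ET3x1 lay between -1.75 and -0.76, and that in ET3x2 between -0.29 and 0.48, where 0 were called. Srrm2, a splicing scaffold, changed by 0.10 ± 0.27 in ET3x2 and -1.67 ± 0.27 in ET3x1 (1.77 ± 0.38, limma adjusted p = 0.0481). The others were Evi5 (1.47 ± 0.32), Erbin (1.30 ± 0.23), Pgpep1 (1.24 ± 0.23), Tns1 (1.07 ± 0.21) and the synaptic vesicle gene Sv2b (0.97 ± 0.22). For the 6 largest negative ones the change in ET3x1 lay between 0.98 and 1.64, and that in ET3x2 between -0.00 and 0.29, again with 0 called. Mmut, the methylmalonyl-CoA mutase, read 8.31, 7.55, 8.33 and 7.99 on high salt, against 7.75, 7.98, 7.68 and 7.64 on low salt, in ET3x2, where the groups overlapped (0.28 ± 0.19). In ET3x1 it averaged 8.97 ± 0.29 on high salt and 7.32 ± 0.44 on low salt (SD, n = 4 each), and the difference was -1.36 ± 0.27 (limma adjusted p = 0.0319). A brighter Mmut probe set changed by 0.10 in ET3x2 and 0.53 in ET3x1. Actr3 (-1.26 ± 0.24) and Actr2 (-1.0 ± 0.23), which form the actin-branching complex, Osbpl1a (-1.0 ± 0.22), Krcc1 (-0.99 ± 0.19) and Papss2 (-0.98 ± 0.19) followed. The Gapdh ratio on RAE230A averaged 0.747 on high salt and 0.948 on low salt in ET3x2, and 0.594 and 0.877 in ET3x1. The beta-actin ratio differed more by diet in ET3x1 than in ET3x2. It averaged 0.878 on high salt and 1.05 on low salt in ET3x2 on RAE230A, and 0.609 and 1.22 in ET3x1. On RAE230B it averaged 0.53 and 0.846 in ET3x2, and 0.3 and 0.924 in ET3x1. With the Gapdh ratio as a covariate 0 probe sets differed between ET3x2 and S and 0 between ET3x2 and ET3x1. With the beta-actin ratio 7 differed between ET3x2 and ET3x1. The part of these ratios in the strain differences was not tested further.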

How the data were processed

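Per the labels' protocols, RNA of each rat's kidney was labelled as biotinylated cRNA and hybridised to an RAE230A and an RAE230B chip. The authors deposited 1 value per probe set on what its range shows to be a log2 scale. Medians that differ little between arrays point to a normalization before deposit. Its method, and how probes were summarised, is not given in the sources used here. RAE230A holds 15923 probe sets and RAE230B 15333, 57 of each being controls, used only for quality measures. Arrays were grouped by strain and diet and the 2 chips of a rat joined by animal number, all from the labels. The rat is the replicate, and limma's p-values set a difference against the spread between rats of a group, pooled over all strain and diet groups. With 1 array per rat and chip, that spread also includes labelling and hybridisation. Precision is limited by the number of arrays.

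All 26 rats entered a model of each chip (limma 3.58.1, R 4.3.3) with a coefficient per group, 20 residual degrees of freedom and an intensity trend in eBayes. A probe set was tested if its mean reached the median of its chip (7.51 and 6.38), and 100 printed on both chips were tested on RAE230A. Tests were two-sided. The p-values of both chips were adjusted together by Benjamini-Hochberg, and calls have an adjusted p under 0.05. Standard errors are limma's. The fit was tested on simulated data.

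Symbols came from the platform annotation, updated through a GRCr8 gene table. A single symbol was found for 11110 tested probe sets, several for 274 and none for 4089. Named are the 12 genes with the largest change each way for salt and 6 each way for the strain differences, up to 4 called members of a list or else 2 with the largest statistic, and Sgk1, Agt, Rtel1 and Pck1. An item of that rule is not reported here. Of 38 lists, 28 of pathways and 10 of cell types, those that bear on the salt response are described. A gene stands in a list by its brightest probe set, and the lists carry no test. Shares over all tested probe sets include dimmer ones and are not matched to a list's brightness. The members and lists were chosen with earlier results of these data known. Promoter sequences are from RefSeq (GRCr8). Alternatives were other normalizations, filters, adjustments, weights, covariates, rats in the fit and leaving out each rat.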

Additional observations from a re-analysis of the deposited data

Results flagged for a closer look

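In 12 of 224 groups of 4 ET3x2 rats examined, for the named genes and the quality measures, a single rat lay far from the other 3, about as many as chance flags (1 in 20, or 11.2). On high salt, rat 4 was the far one for Vdac1 (12.07, others 12.20), C1qtnf3 (9.24, others 9.31), Rdx (8.70, others 9.09 to 9.10), the lipase gene Lipe (9.59, others 9.31 to 9.34), the semaphorin gene Sema3g (7.96, others 8.30 to 8.32) and the taurine transporter gene Slc6a6 (8.74, others 9.19 to 9.26). High-salt rat 2 was far for the glutathione transferase gene Gstm1 (10.14, others 9.79 to 9.81) and high-salt rat 1 for the podocyte gene Synpo (8.74, others 8.45 to 8.47). On low salt, rat 1 was far for Lcp1 (9.20, others 8.76 to 8.78), rat 4 for Per1 (9.70, others 9.63 to 9.64), and rat 3 for the fatty acid-binding protein gene Fabp3 (11.21, others 11.53 to 11.59) and for the interquartile range on RAE230B (1.80, others 1.84 to 1.85).

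By limma's interaction the salt responses of 3 probe sets differed from S, those of Myh1 (0.74), Tns1 (-1.14) and Igf1r (-0.77). Of the 47 probe sets that differed from ET3x1, those named in the text are Srrm2 (1.77), Evi5 (1.47), Erbin (1.30), Pgpep1 (1.24), Tns1 (1.07), Sv2b (0.97), Mmut (-1.36), Actr3 (-1.26), Actr2 (-1.0), Osbpl1a (-1.0), Krcc1 (-0.99), Papss2 (-0.98) and Noct (-0.65).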

How the results depend on the processing

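For the salt response of ET3x2 the number of calls stayed within 1.5 times of 47 with quantile normalization (34, 25 higher and 9 lower, against 40 and 7), centred array medians (58), the top 25% by brightness (39), no intensity trend (54), the bioD minus bioC spike-in covariate (45) and the ET3x2 and ET3x1 rats alone (44). It was 109 with no filter, 113 with adjustment within each chip, 1140 with array weights, 0 with the Gapdh ratio as covariate, 74 with the beta-actin ratio, 1 with the ET3x2 rats alone and 8 with the ET3x2 and S rats alone. The fits with ET3x2 and 1 other strain for this response, and leaving out rats of a strain outside a comparison, were added after seeing the data. Array weights gave high-salt rat 4 a weight of 0.455 and low-salt rat 3 one of 0.304 on RAE230A. Leaving out 1 ET3x2 rat gave 1 to 294 calls, and leaving out 1 rat of the other strains 39 to 73, the last without S low-salt rat 1. All 47 kept their direction in each setting that tested them, the top 25% by brightness holding only 28 of them.

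For the difference from S (3 calls), quantile normalization gave 1, centred medians 0, no filter 8, array weights 416, the Gapdh ratio 0, the beta-actin ratio 10, bioD minus bioC 0 and the ET3x2 and S rats alone 0. Leaving out 1 rat gave 0 to 44 calls, with 44 without ET3x2 high-salt rat 4, 43 without low-salt rat 3 and 20 without S low-salt rat 3. For the difference from ET3x1 (47 calls), no filter gave 29, the brightest 25% 25, array weights 1626, the Gapdh ratio 0, the beta-actin ratio 7, bioD minus bioC 2 and the ET3x2 and ET3x1 rats alone 167. Leaving out 1 rat gave 0 to 361 calls, with 361 without ET3x1 low-salt rat 1, 114 without ET3x2 high-salt rat 4 and 0 without ET3x2 high-salt rat 2, ET3x2 low-salt rat 2, ET3x1 high-salt rat 3 or ET3x1 low-salt rat 3. The cause of these shifts was not tested.

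Among uncalled named genes, Nos2 turned to 0.01 with array weights, 0.09 with the Gapdh ratio, 0.03 with the beta-actin ratio and -0.05 to 0.03 with 1 rat left out, Slc4a1 to -0.01 with the Gapdh ratio, and the second Rtel1 probe set to 0.02 without low-salt rat 2 (-0.06 to 0.02 with 1 rat left out). Of 152 list medians recomputed, 20 moved by more than the spread between rats. No paired analysis was possible because each animal number in the labels belongs to 1 rat of 1 group and none is shared between groups.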
